A study of Mus musculus with 40 samples.

Results

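The 9 genes described here encode the ligands, receptors and filament proteins through which hepatic stellate cells are usually followed as they activate: the TGF-β ligands Tgfb1, Tgfb2 and Tgfb3, the PDGF ligands Pdgfa and Pdgfb, the PDGF receptors Pdgfra and Pdgfrb, and the filament genes Acta2 and Des. They were chosen by symbol, matched to Ensembl identifiers, out of 55359 gene identifiers, and their levels were read from unstranded RNA-Seq counts in 40 livers. All 9 passed a filter on low counts that kept 15373 genes. Male C57BL/6 mice received TCDD, a dioxin that binds the aryl hydrocarbon receptor (AhR), at 30, 10, 3, 1, 0.3, 0.1 or 0.03 μg/kg in sesame oil, or sesame oil alone (vehicle), by 7 oral gavages at intervals of 4 days. Per the labels the study began at 30 days of age and ended at 58 days. The study's methods give a slightly younger age at the first gavage. Each of the 8 groups held 5 mice, and the question put to these genes was how their hepatic expression changed with dose. Levels are CPM, the usual library-scaled counts, normalized between libraries by TMM in edgeR. A gene was called when its adjusted p (edgeR quasi-likelihood test, Benjamini-Hochberg over all genes tested) was under 0.05 and its fold change was at least 1.5.

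TGF-β ligands are secreted in a latent complex and, once released, signal through type I and type II receptor kinases to SMAD proteins, which raise transcription of matrix and contractile genes. PDGF dimers bind receptor tyrosine kinases, of which the β receptor is a hallmark of stellate cells and drives their proliferation and migration. Quiescent stellate cells store vitamin A and express desmin (Des) in rodents, while α-smooth muscle actin (Acta2) marks their conversion into contractile, matrix-producing myofibroblasts. Acta2 and Des are also expressed by vascular smooth muscle, and Des by skeletal muscle.

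The promoters of 5 members are shown because their genes span the responses: Tgfb2 had the largest fold change, Tgfb1 a smaller one and Pdgfa none that was called, and Acta2 and Des, both filament genes, parted at the highest dose. Each stretch is the 250 bases before the RefSeq transcription start, in GRCm38.p6, read 5′ to 3′ on the strand of the gene. The capitals mark matches, on either strand, to the core of the dioxin response element (GCGTG, bound by AhR), to a SMAD-type motif (CAGACA) or to a TATA box (TATAAA).
Tgfb1, chr7:25686752-25687001, plus strand: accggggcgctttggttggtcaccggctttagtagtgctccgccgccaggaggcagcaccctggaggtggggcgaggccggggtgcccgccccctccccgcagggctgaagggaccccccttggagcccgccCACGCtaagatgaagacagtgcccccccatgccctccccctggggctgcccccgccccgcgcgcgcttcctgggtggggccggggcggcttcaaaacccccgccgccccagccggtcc
Tgfb2, chr1:186705990-186706239, minus strand: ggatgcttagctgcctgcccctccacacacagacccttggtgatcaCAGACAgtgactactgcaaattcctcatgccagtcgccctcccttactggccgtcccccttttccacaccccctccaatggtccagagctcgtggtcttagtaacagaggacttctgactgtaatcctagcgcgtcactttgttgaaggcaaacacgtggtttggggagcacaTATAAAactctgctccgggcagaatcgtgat
Pdgfa, chr5:138994945-138995194, minus strand: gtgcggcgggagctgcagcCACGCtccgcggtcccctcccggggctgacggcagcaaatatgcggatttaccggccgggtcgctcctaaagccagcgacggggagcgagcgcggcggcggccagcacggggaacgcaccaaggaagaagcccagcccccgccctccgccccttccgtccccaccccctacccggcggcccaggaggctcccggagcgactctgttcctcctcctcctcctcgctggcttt
Acta2, chr19:34255374-34255623, minus strand: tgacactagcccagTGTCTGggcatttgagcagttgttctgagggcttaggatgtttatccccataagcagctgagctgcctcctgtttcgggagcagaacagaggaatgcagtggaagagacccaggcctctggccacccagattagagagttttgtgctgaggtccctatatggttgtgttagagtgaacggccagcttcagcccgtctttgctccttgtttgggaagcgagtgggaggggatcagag
Des, chr1:75360042-75360291, plus strand: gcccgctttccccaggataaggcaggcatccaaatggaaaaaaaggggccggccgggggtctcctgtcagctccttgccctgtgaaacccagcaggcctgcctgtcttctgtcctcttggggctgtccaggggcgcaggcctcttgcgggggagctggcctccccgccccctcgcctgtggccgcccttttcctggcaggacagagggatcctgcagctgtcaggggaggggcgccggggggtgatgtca
Of the 9 members, 6 had a promoter in the RefSeq table, Pdgfa with 2 starts. The window of Tgfb1 held 1 dioxin response element core, which 28.2% of all 32851 windows of this length also held, and so did the window shown for Pdgfa, which was not called at any dose. The window of Tgfb2 held 1 SMAD-type motif (17.1% of all windows) and 1 TATA box (12.4%), and the window of Acta2 held 1 SMAD-type motif. The windows of Des, of Pdgfra and of the other start of Pdgfa held none of the 3 motifs. A match describes these letters only and is neither a binding site nor a cause.

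The depth was 15496128 to 20967093 gene counts per library. Cyp1a1, the classic AhR target, ran from 0.979 to 2.33 CPM in vehicle mice and from 4750 to 6376 CPM at 30 μg/kg, and every treated library, from 109 CPM at 0.03 μg/kg upward, was above every vehicle library. Of the genes called at 10 and 30 μg/kg, 62.7% and 55.1% were higher. Scaling by total counts, which moved the median of all genes by 0.21 and 0.49 (log2), made these shares 79.8% and 80.4%; the counts of called members at both doses were the same under either scaling. The summed CPM of 4 hepatocyte genes (Alb, Ttr, Apoa1, Trf) ran from 106622 to 130972 in vehicle livers and from 35388 to 74659 at 30 μg/kg. The 10 stellate markers summed to 201 to 276 CPM in vehicle livers and to 410 to 791 CPM at 30 μg/kg. A sum is weighted toward the abundant markers. At 30 μg/kg 5 of the 10 were called higher (23.2% of all genes), and their median log2 fold change was 0.51. In bulk RNA, fewer cells of a type and less RNA per cell cannot be told apart, and neither can more cells and more RNA per cell.

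One library stood apart in its muscle transcripts and bears on 3 members. Vehicle replicate 2 held 559 counts (34.8 CPM) of Ckm, 493 counts (30.7 CPM) of Myh4 and 1057 counts (65.8 CPM) of Tnnt3, which encode skeletal muscle creatine kinase, myosin heavy chain and troponin. In the other 39 libraries none of these exceeded 0.448 CPM. The 5 skeletal muscle markers summed to 300 CPM in this library, where the vehicle group had a lowest sum of 0.518 CPM and a median of 1.15 CPM. Its smooth muscle markers summed to 25.8 CPM, the highest of its group, where the lowest was 8.36 CPM. Acta2 and Des were far above the other vehicle mice in this library and Tgfb3 was also highest there, so their values are given with and without it.

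Another library, replicate 1 at 30 μg/kg, stood apart from its group over all genes and had the lowest level of 8 of the 9 members, with Pdgfa the exception. The chi-square per degree of freedom between its counts and those of its group was 112 to 196, and 20.1 to 83.6 between the other 4 mice. Its stellate markers summed to 410 CPM (others 559 to 791 CPM), its macrophage markers to 474 CPM (others 952 to 1341 CPM) and its hepatocyte genes to 74659 CPM (others 35388 to 64187 CPM). Without it the count of called members at 30 μg/kg was again 7, and the log2 changes of the members called ran from 1.40 (Pdgfrb) to 4.81 (Tgfb2).

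At 30 μg/kg 7 of the 9 members rose, Pdgfa and Des were not called, and no member was called below 3 μg/kg. At 0.03, 0.1, 0.3 and 1 μg/kg edgeR called no member, beside 0.0195%, 0.0976%, 0.468% and 2.78% of all genes, and neither DESeq2 nor limma called a member at these doses. At an unadjusted p under 0.05 there were 1, 1, 1 and 5 members, beside 2.56%, 4.33%, 7.33% and 15.1% of all genes. Of these, Des (0.03 and 0.3 μg/kg), Acta2 (0.1 μg/kg) and, at 1 μg/kg, Tgfb3, Pdgfa, Acta2 and Des lay below vehicle, and Pdgfb at 1 μg/kg lay above. Vehicle replicate 2 was the highest vehicle mouse for Tgfb3, Acta2 and Des. Without it the vehicle mean of Des was 5.01 CPM, below 5.78, 5.59 and 5.29 CPM at 0.03, 0.3 and 1 μg/kg. That of Acta2 was then 1.93 CPM (2.09 at 0.1 μg/kg, 1.91 at 1 μg/kg) and that of Tgfb3 0.866 CPM (0.520 at 1 μg/kg). At 3 μg/kg 1 member, Pdgfb, was called, and was higher (6.75% of all genes called, 4.53% higher). At 10 μg/kg 5 of 9 were called and all were higher (21.8% of all genes called, 13.6% higher). All 7 members called at 30 μg/kg were higher (42.1% called, 23.2% higher). All 5 dosed mice lay above all 5 vehicle mice for 5 members at 10 μg/kg (12.9% of all genes) and for 6 at 30 μg/kg (19.7%). The median log2 fold change of the 9 was 0.74 at 10 μg/kg and 2.07 at 30 μg/kg, beside 0.01 and 0.03 for all genes tested. The comparisons share their 5 vehicle mice and are not independent of each other.

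**Figure D1:**
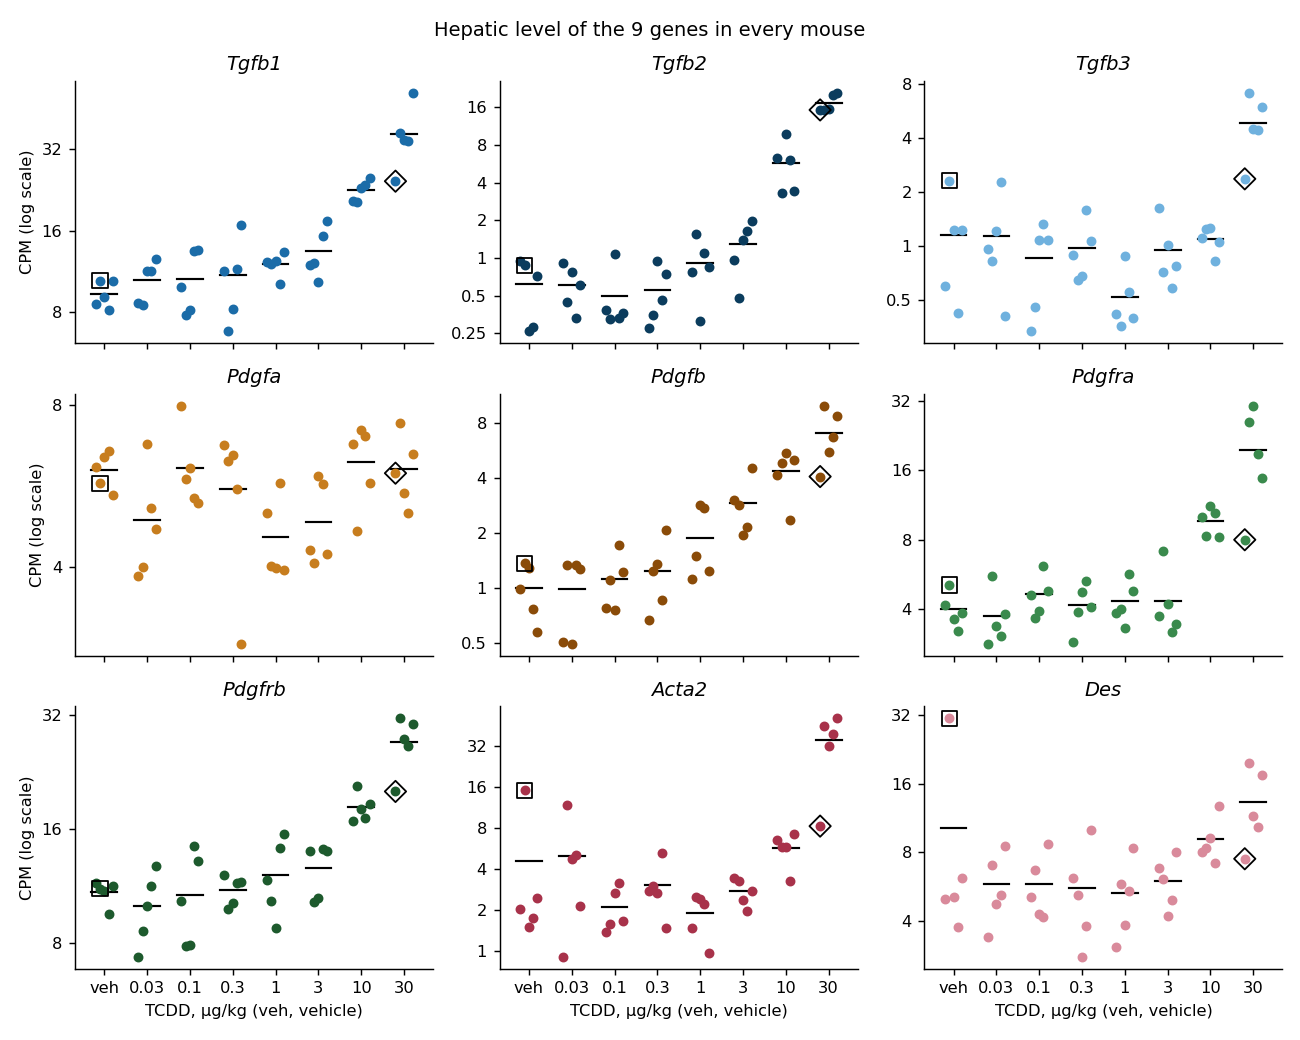
Hepatic level of each of the 9 genes in every mouse, in CPM on a log axis, against TCDD dose in μg/kg (5 mice a group). Points are mice, bars are group means, the square marks vehicle replicate 2 and the diamond marks replicate 1 at 30 μg/kg. Tgfb2 runs from 0.259 to 0.945 CPM in vehicle mice and from 15.2 to 20.7 CPM at 30 μg/kg, while the levels of Pdgfa overlap between all groups.

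Among the TGF-β ligands, Tgfb1, the major isoform of injured liver, ran at 8.56, 10.5, 9.06, 8.12 and 10.4 CPM in the vehicle mice. It ran at 20.6, 20.3, 23.0, 23.6 and 25.2 CPM at 10 μg/kg and at 24.4, 36.7, 34.6, 34.3 and 51.8 CPM at 30 μg/kg. Every mouse at both doses lay above every vehicle mouse. The change was 2.42-fold at 10 μg/kg (log2 1.28, SE 0.19, adjusted p = 2e-06, edgeR) and 3.90-fold at 30 μg/kg (log2 1.97, SE 0.19, adjusted p = 5.07e-11). At 3 μg/kg the fold was 1.44 and the adjusted p was 0.0742, and all 5 mice were above the vehicle mean.

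Tgfb2 had the largest fold change of the 9. It was near the lower end of detection in vehicle mice, with 4 to 19 counts and levels of 0.945, 0.871, 0.259, 0.280 and 0.716 CPM. It rose to 6.24, 3.28, 9.75, 6.00 and 3.45 CPM at 10 μg/kg and to 15.2, 15.2, 15.5, 19.8 and 20.7 CPM at 30 μg/kg, where the counts were 328 to 499. The groups did not overlap at either dose, and the 30 μg/kg mice were the most alike of any dose group at or above 1 μg/kg, with a coefficient of variation of 15.9% against 45.8% at 10 μg/kg. The fitted change was 9.07-fold at 10 μg/kg (log2 3.18, SE 0.39, adjusted p = 4.3e-08) and 27.3-fold at 30 μg/kg (log2 4.77, SE 0.40, adjusted p = 8.32e-13).

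Tgfb3, the third isoform, was called only at 30 μg/kg. The vehicle mice were at 0.597, 2.30, 1.23, 0.420 and 1.22 CPM, of which the highest was replicate 2. The 10 μg/kg mice were at 1.10, 1.25, 1.25, 0.824 and 1.06 CPM, within the vehicle range. Without replicate 2 that range ended at 1.23 CPM, and 2 of the mice at 10 μg/kg lay just above it. At 30 μg/kg the levels were 2.36, 7.11, 4.50, 4.41 and 5.94 CPM, and the lowest of these was close to vehicle replicate 2. The fold change was 4.21 (log2 2.07, SE 0.40, adjusted p = 2.84e-05), and 5.61 (log2 2.49, SE 0.42, adjusted p = 5.03e-06) without vehicle replicate 2. The unstranded counts of Tgfb3 held 75.1% of the reads that both strand columns together gave it, since reads where genes overlap are left out of unstranded counts, so its level is uncertain. On a strand-specific column it was also called at 30 μg/kg (log2 2.03, SE 0.41). Strand settings split reads evenly in these libraries, so that column can also hold reads of an overlapping gene. It therefore cannot settle the level of Tgfb3.

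Of the PDGF ligands, Pdgfb, which activates the β receptor as a homodimer, was the only member called at 3 μg/kg. Its vehicle levels were 0.995, 1.37, 1.29, 0.770 and 0.573 CPM (8 to 22 counts). At 3 μg/kg they were 3.02, 2.86, 1.95, 2.15 and 4.55 CPM, all above every vehicle mouse, as 5.23% of all genes were at this dose. The change was 2.87-fold at 3 μg/kg (log2 1.52, SE 0.35, adjusted p = 0.00302), 4.33-fold at 10 μg/kg (log2 2.11, SE 0.35, adjusted p = 8.28e-06) and 6.93-fold at 30 μg/kg (log2 2.79, SE 0.35, adjusted p = 1.07e-08). At 1 μg/kg all 5 mice were above the vehicle mean, at 1.87-fold with an adjusted p of 0.175. The call at 3 μg/kg was lost in either numbering run of the sample titles alone, at 1.09 (adjusted p = 0.215) and 2.31 (adjusted p = 0.0519) on the log2 scale.

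Pdgfa, the main ligand of the α receptor, was not called at any dose. The vehicle mice were at 6.12, 5.72, 6.41, 6.58 and 5.44 CPM and the 30 μg/kg mice at 5.97, 7.40, 5.49, 5.04 and 6.49 CPM. These ranges overlapped almost fully, and the log2 difference was 0.01 with an SE of 0.18 (adjusted p = 0.983). At 1 and 3 μg/kg all 5 mice were below the vehicle mean, with log2 differences of -0.41 (adjusted p = 0.266) and -0.32 (adjusted p = 0.309). The level of Pdgfa is uncertain in the same way, as its unstranded counts held 83.4% of those in both strand columns.

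The PDGF receptors rose together from 10 μg/kg. Pdgfra, the α receptor of mesenchymal cells, was at 4.18, 5.10, 3.62, 3.22 and 3.87 CPM in vehicle mice, at 10.0, 8.31, 11.3, 10.4 and 8.22 CPM at 10 μg/kg and at 8.01, 26.0, 30.5, 18.7 and 14.9 CPM at 30 μg/kg. The mice at 30 μg/kg spread widely, and replicate 1 was below every mouse at 10 μg/kg. The change was 2.41-fold at 10 μg/kg (log2 1.27, SE 0.25, adjusted p = 0.000129) and 4.90-fold at 30 μg/kg (log2 2.29, SE 0.25, adjusted p = 7.82e-10). In the first numbering run alone the change at 10 μg/kg was 1.08 on the log2 scale (adjusted p = 0.0863) and was not called.

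Pdgfrb was at 11.5, 11.1, 11.0, 9.51 and 11.3 CPM in vehicle mice, the tightest of the 9 genes there with a coefficient of variation of 7.36%. It was at 16.8, 20.8, 18.1, 17.1 and 18.6 CPM at 10 μg/kg and at 20.1, 31.3, 27.6, 26.5 and 30.2 CPM at 30 μg/kg. No treated mouse at these doses overlapped a vehicle mouse. The change was 1.67-fold at 10 μg/kg (log2 0.74, SE 0.16, adjusted p = 0.000381) and 2.49-fold at 30 μg/kg (log2 1.31, SE 0.16, adjusted p = 7.4e-09).

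**Figure D2:**
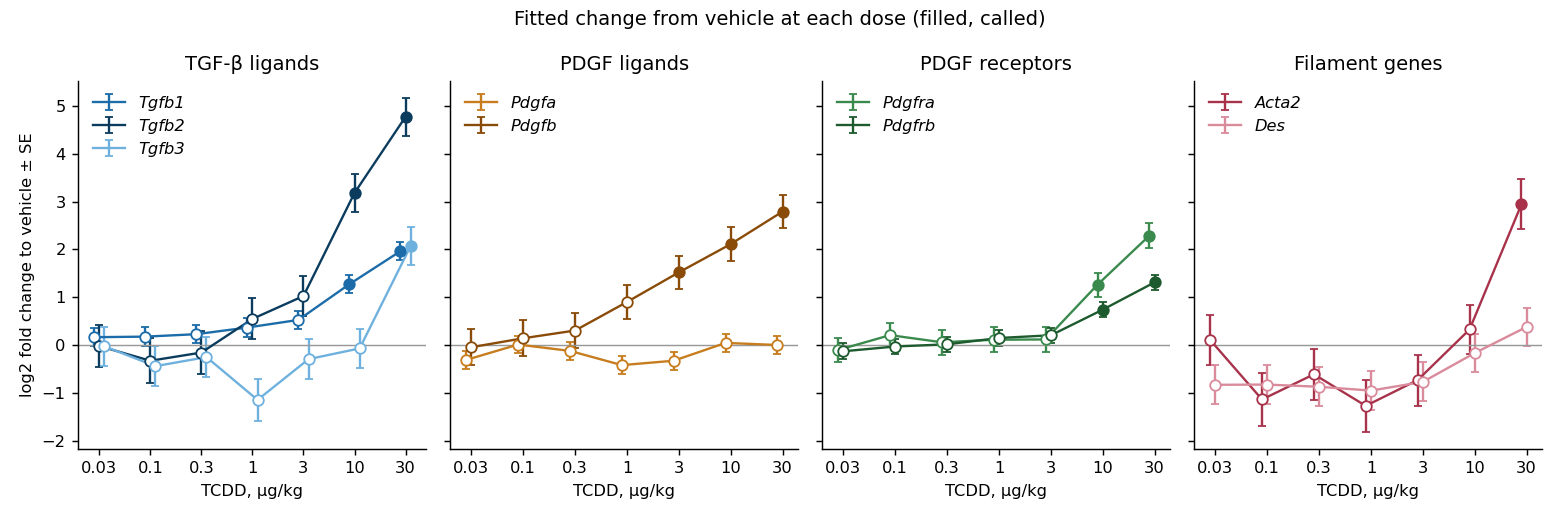
Fitted log2 fold change to vehicle with its standard error (vertical axis) at each TCDD dose in μg/kg, in 4 panels by role, from edgeR on all 40 libraries. Filled points were called and open points were not. Pdgfb is filled from 3 μg/kg, 5 genes are filled at 10 μg/kg and 7 at 30 μg/kg, and Pdgfa stays near 0.

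Of the filament genes, Acta2 was called only at 30 μg/kg and Des at no dose when all mice were used. Acta2 was at 2.04, 15.2, 1.49, 1.75 and 2.44 CPM in vehicle mice, the second of which is the library with skeletal muscle transcripts. At 10 μg/kg it was at 6.53, 5.86, 5.84, 3.30 and 7.28 CPM and at 30 μg/kg at 8.29, 45.5, 32.1, 39.4 and 51.4 CPM. At 30 μg/kg 4 of 5 mice were above every vehicle mouse, and replicate 1 was below vehicle replicate 2. The change was 7.69-fold at 30 μg/kg (log2 2.94, SE 0.52, adjusted p = 7.78e-06), and at 10 μg/kg the log2 difference of 0.33 was not called (adjusted p = 0.67). A high level was also seen at 0.03 μg/kg in replicate 2, with 11.9 CPM of Acta2 and 9.13 CPM of Myh11, the smooth muscle myosin heavy chain, while Ckm, Myh4 and Tnnt3 were at 0 there.

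Des was at 4.98, 31.0, 5.11, 3.78 and 6.16 CPM in vehicle mice, at 8.06, 8.40, 9.23, 7.18 and 12.8 CPM at 10 μg/kg and at 7.50, 19.7, 11.6, 10.3 and 17.5 CPM at 30 μg/kg. Every mouse at both doses was below vehicle replicate 2 and above the other 4 vehicle mice. With all mice the log2 difference was 0.38 at 30 μg/kg (SE 0.39, adjusted p = 0.427) and -0.16 at 10 μg/kg (adjusted p = 0.801), and Des was not called.

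Without vehicle replicate 2, both filament genes were called at 10 and 30 μg/kg. Acta2 was then 2.98-fold higher at 10 μg/kg (log2 1.58, SE 0.47, adjusted p = 0.00983) and 18.2-fold higher at 30 μg/kg (log2 4.19, SE 0.50, adjusted p = 5.58e-09). Des was 1.82-fold higher at 10 μg/kg (log2 0.87, SE 0.32, adjusted p = 0.0371) and 2.66-fold higher at 30 μg/kg (log2 1.41, SE 0.32, adjusted p = 0.000321). The counts of called members became 7 of 9 at 10 μg/kg (21.2% of all genes) and 8 of 9 at 30 μg/kg (41.5% of all genes). With replicate 1 at 30 μg/kg left out as well, they were 7 (22.0% of all genes) and 8 (44.2%), an alternative chosen after the data were seen. The values below 0 that both genes showed at 0.1 to 3 μg/kg in the fit of all mice (none of them called) moved to between -0.02 and 0.64 without this library. Within the second numbering run, which does not hold vehicle replicate 2, Acta2 was 4.26 (adjusted p = 2.66e-06) and Des 1.37 (adjusted p = 0.0318) at 30 μg/kg on the log2 scale. Within the first run, where it is 1 of 3 vehicle mice, they were 2.10 (adjusted p = 0.0655) and -0.02 (adjusted p = 0.986). The first run also holds replicate 1 at 30 μg/kg, the lowest mouse of its group in Acta2 (8.29 CPM) and Des (7.50 CPM). The part of either library in the difference between runs was not tested.

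**Figure D3:**
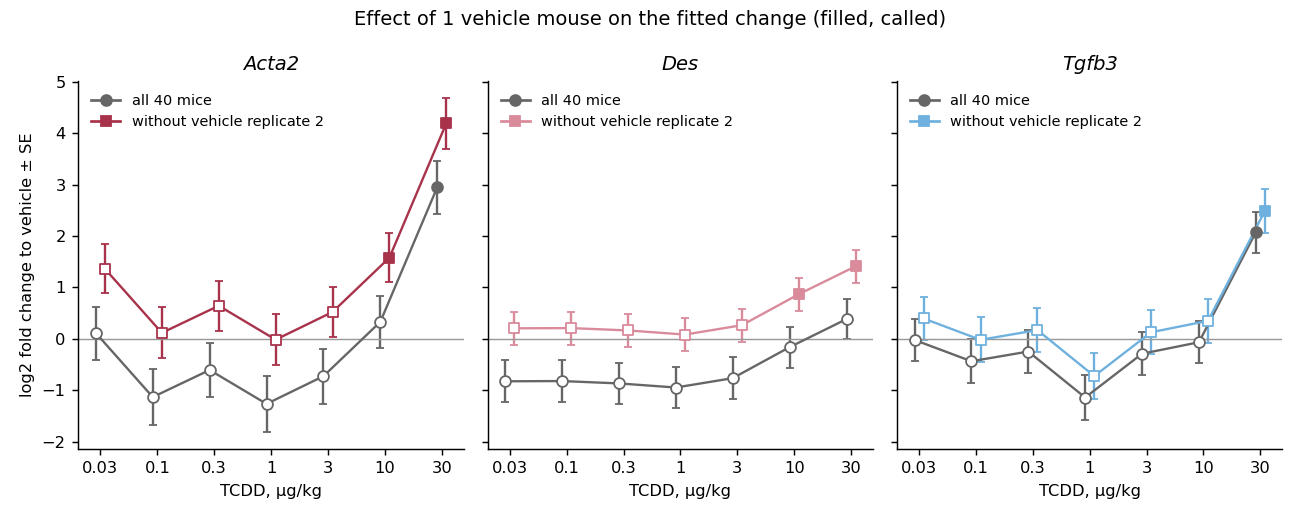
Fitted log2 fold change to vehicle with its standard error for Acta2, Des and Tgfb3 at each TCDD dose in μg/kg, from all 40 mice (grey circles) and without vehicle replicate 2 (coloured squares). Filled points were called. Des at 30 μg/kg moves from 0.38 to 1.41 and Acta2 at 10 μg/kg from 0.33 to 1.58.

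From 10 to 30 μg/kg, 5 of 9 members were called higher (21.1% of all genes called, 10.6% higher). No vehicle mouse enters the group means compared, but the p-values rest on a spread estimated over all 40 libraries, vehicle replicate 2 included. Acta2 rose 6.12-fold (log2 2.61, SE 0.51, adjusted p = 0.000102), Tgfb3 4.41-fold (log2 2.14, SE 0.39, adjusted p = 5.04e-05), Tgfb2 3.01-fold, Pdgfra 2.03-fold and Tgfb1 1.61-fold. Pdgfrb was 1.49-fold higher (adjusted p = 0.0045), just under the fold threshold. Pdgfb was 1.60-fold higher (adjusted p = 0.0904), Des 1.46-fold higher (adjusted p = 0.313), and Pdgfa differed by -0.04 on the log2 scale (adjusted p = 0.887). In the first numbering run alone (2 mice a group at these doses) no member was called. That run holds replicate 1 at 30 μg/kg, and the part of this library in the loss was not tested. Without replicate 5 at 30 μg/kg Tgfb1 (log2 0.51) fell under the fold threshold. Over the 8 ordered doses, 7 of 9 members had a positive slope at an adjusted p under 0.05 (57.7% of all genes had a slope in either direction, 31.5% upward), the steepest being 0.74 log2 units per dose step for Tgfb2.

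The balance between members of a pair was then compared within each mouse, as the log2 ratio of their counts, which does not depend on the scaling of libraries. Of 10 ratio differences tested (5 pairs, 10 and 30 μg/kg against vehicle, 2-sided exact permutation tests adjusted over the 10), 9 had an adjusted p under 0.05, and the smallest p that 5 against 5 mice allow is 0.00794. Tgfb2 over Tgfb1 rose from -3.94 ± 0.72 (SD, n = 5) to -2.08 ± 0.66 at 10 μg/kg and to -1.04 ± 0.29 at 30 μg/kg (exact permutation adjusted p = 0.0159 for both). Tgfb3 over Tgfb1 fell by 1.15 at 10 μg/kg (exact permutation adjusted p = 0.0227) and lay 0.22 above vehicle at 30 μg/kg (exact permutation adjusted p = 0.587). At 30 μg/kg the vehicle range of this ratio, -4.06 to -2.15, contained all 5 dosed mice. Its upper limit was vehicle replicate 2. Without that library the vehicle range ended at -2.82, below the highest mouse at 30 μg/kg (-2.36). The differences were then -0.90 at 10 μg/kg (exact permutation adjusted p = 0.0353) and 0.47 at 30 μg/kg (exact permutation adjusted p = 0.206).

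Pdgfa over Pdgfb went from 2.58 ± 0.46 (SD, n = 5) in vehicle mice to 0.55 ± 0.62 at 10 μg/kg and -0.15 ± 0.43 at 30 μg/kg (exact permutation adjusted p = 0.0159 for both). Counts of Pdgfa exceeded those of Pdgfb in every vehicle mouse, and in 4 of 5 mice at 30 μg/kg they were fewer. These counts are not corrected for gene length. The unstranded counts held 83.4% of the Pdgfa reads that both strand columns gave, and 100% of those of Pdgfb. Replicate 3 at 30 μg/kg had a log2 ratio of only -0.02, so its sign is uncertain. Per kilobase of exon, Pdgfa at 30 μg/kg still had the higher mean (1.95 CPM per kb, Pdgfb 1.69), and the ranges overlapped. Pdgfra over Pdgfrb rose by 0.52 at 10 μg/kg (exact permutation adjusted p = 0.0265) and by 0.85 at 30 μg/kg (exact permutation adjusted p = 0.0227). Vehicle replicate 2 was the highest vehicle mouse in this ratio, at -1.12 (others -1.58 to -1.45). Without it the rises were 0.60 and 0.94 (exact permutation adjusted p = 0.0227 for both). Acta2 over Des rose by 0.61 at 10 μg/kg (exact permutation adjusted p = 0.0265) and by 2.54 at 30 μg/kg (exact permutation adjusted p = 0.0159). Vehicle replicate 2 was the highest vehicle mouse in Acta2 over Des, at -1.03 (lowest -1.74), but was close to the next, at -1.08, since both genes were high in it. Without it the rise at 30 μg/kg was 2.61 (exact permutation adjusted p = 0.0227). On the strand-specific column the differences of Acta2 over Des at 10 μg/kg and of Pdgfra over Pdgfrb at both doses did not pass.

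**Figure D4:**
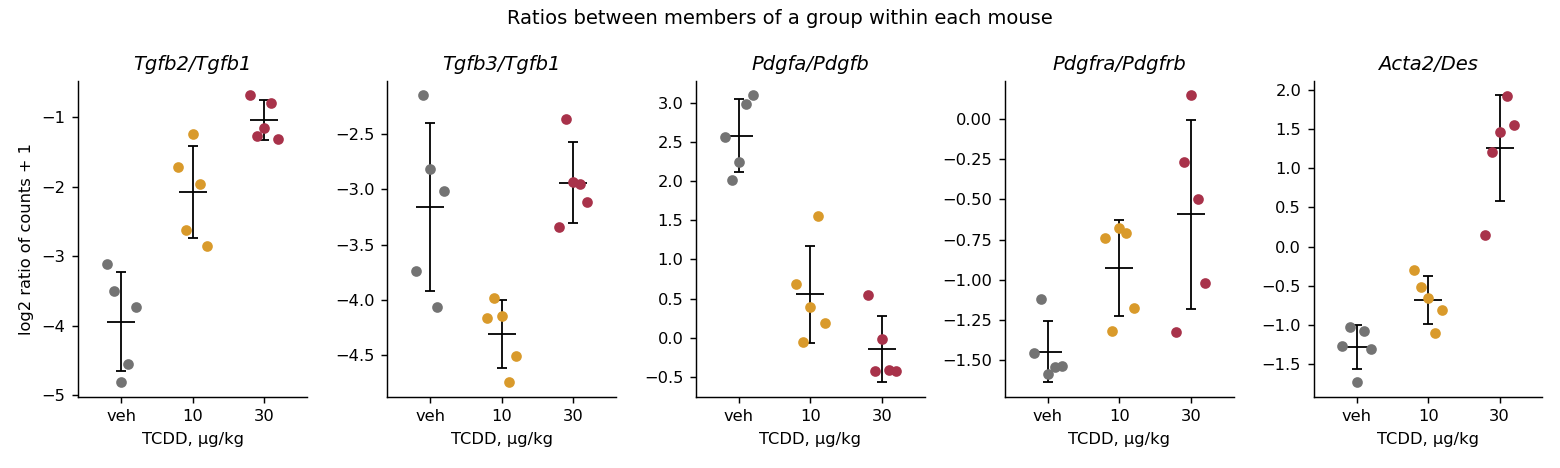
Log2 ratio of counts (1 added to each) for 5 pairs of members in every mouse, for vehicle, 10 and 30 μg/kg TCDD, with the mean and SD in black (n = 5). Each panel has its own vertical axis. Pdgfa over Pdgfb falls from a mean of 2.58 to -0.15 and Acta2 over Des rises from -1.29 to 1.26.

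The order of the genes by level per length changed with dose. Per kilobase of exon (GENCODE M21), Pdgfrb led in the 4 vehicle mice other than replicate 2 with 1.98 ± 0.17 CPM per kb (SD, n = 4), followed by Pdgfa at 1.97, Tgfb1 at 1.79, Des at 1.33 and Acta2 at 0.878. The ranges of neighbours overlapped from Pdgfrb to Acta2, a gap separated Acta2 from Pdgfra at 0.371, and below it Tgfb3, Pdgfb and Tgfb2 (0.0950) again overlapped in turn. With replicate 2 included, Des and Acta2 led at 2.72 and 2.08 CPM per kb. At 10 μg/kg Tgfb1 led at 4.47 ± 0.41 CPM per kb (SD, n = 5) and did not overlap Pdgfrb at 3.33. At 30 μg/kg Acta2 led at 16.1 ± 7.62 CPM per kb, followed by Tgfb1 at 7.21 and Pdgfrb at 4.95, and Tgfb2 had moved from the last place to the fifth at 2.99. All neighbours in the order at 30 μg/kg overlapped in range.

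Other genes of both pathways, from lists that do not contain the members, were read in the same fit. These lists were chosen with earlier results of these data known, so their counts are not independent evidence. Of 38 genes, 36 were tested, of which 24 rose and 1 fell at the 30 μg/kg dose (23.2% of all genes were called higher and 42.1% either way). The 10 μg/kg dose gave 13 that rose and 1 that fell (13.6% of all genes called higher, 21.8% either way). At 1 μg/kg 2 rose and 1 fell (2.78% of all genes either way). Their median change at 30 μg/kg was 1.26 (log2), beside 0.03 for all genes. Without vehicle replicate 2, 26 genes rose and 0 fell at the top dose (41.5% of all genes called), while 16 rose and 1 fell at 10 μg/kg (21.2%).

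All 5 receptor genes of the TGF-β family were called higher at 30 μg/kg, and Tgfbr2 and Acvrl1 already at 3 μg/kg. Tgfbr2, the ligand-binding type II receptor, was at 23.8 ± 4.57 CPM (SD, n = 5) in vehicle mice, 1.60-fold higher at 3 μg/kg (adjusted p = 0.00737) and at 75.3 ± 19.5 CPM at 30 μg/kg (log2 1.66, adjusted p = 2.31e-10). Acvrl1, a type I receptor of endothelium, was 1.66-fold higher at 3 μg/kg (adjusted p = 0.0182). Of the genes listed under latent TGF-β binding and activation, 6 of 8 tested were called higher at 30 μg/kg and none lower. Ltbp2 was the earliest of the list, at 1 μg/kg (2.84-fold, adjusted p = 0.0177). It stands there by its family name, and its binding of the latent ligand was not tested. Thbs1, thrombospondin, which can activate latent TGF-β, rose most, from 1.01 ± 0.38 CPM (SD, n = 5) to 33.1 ± 15.7 CPM at 30 μg/kg (log2 5.03, SE 0.41, adjusted p = 5.56e-13).

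The intracellular SMAD genes moved little. Of 7, Smad6 (log2 0.91, adjusted p = 4.09e-05) and Smad7 (log2 0.64, adjusted p = 0.00883), the inhibitory SMADs, were called higher at 30 μg/kg, and the signal-carrying Smad2, Smad3 and Smad4 were not called, at log2 differences of 0.05, -0.36 and -0.04. Ski, a repressor of SMAD transcription, had the lowest value of the list at -0.50 (adjusted p = 0.00357), under the fold threshold. Of the 6 response genes, 5 were called higher at 30 μg/kg. Ccn2, connective tissue growth factor, was 3.53 higher on the log2 scale at 30 μg/kg (adjusted p = 8.37e-08). Its unstranded column holds 61.1% of the reads that both strand columns together gave it.

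Of the other PDGF genes, Pdgfd, a further ligand of the β receptor, was called higher at 30 μg/kg (log2 1.40, SE 0.35, adjusted p = 0.000838), and Pdgfc (0.30, adjusted p = 0.189) and Pdgfrl (0.53, adjusted p = 0.49) were not called. Of 9 contractile and myofibroblast genes tested, 6 were called higher at 30 μg/kg (Myl9, Tpm1, Vim, Lox, Timp1 and Postn) and Tpm2 was called lower. Timp1, an inhibitor of matrix metalloproteinases, had 0 counts in 4 of 5 vehicle mice and 4.39 ± 2.72 CPM (SD, n = 5) at 30 μg/kg (log2 5.74, SE 0.82, adjusted p = 3.45e-07). Tpm2, a tropomyosin of striated and smooth muscle, was at 59.5 CPM in vehicle replicate 2. With all mice it was called lower from 1 μg/kg (log2 -2.22, adjusted p = 0.00235) to 30 μg/kg (adjusted p = 0.0483). Without that library the call was lost at 1 μg/kg (-0.76, adjusted p = 0.171) and at 30 μg/kg (0.45, adjusted p = 0.184), and held at 3 μg/kg (-0.90, adjusted p = 0.0484) and 10 μg/kg (-0.78, adjusted p = 0.0399). Tagln, transgelin, could not be read: the unstranded column held 0.726% of the reads in both strand columns.

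**Figure D5:**
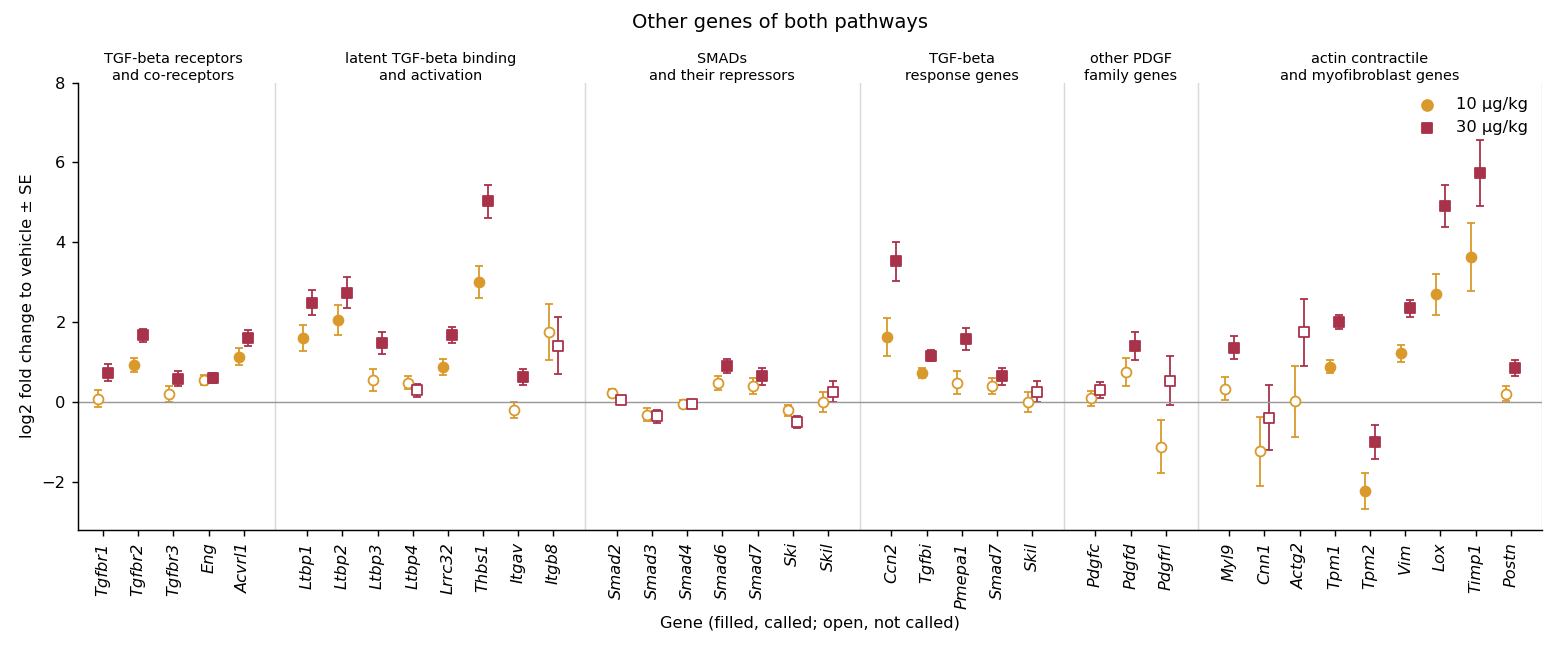
Log2 fold change to vehicle with its standard error (vertical axis) for genes of 6 lists, of which Smad7 and Skil stand in 2 lists, at 10 μg/kg (circles) and 30 μg/kg (squares) TCDD. Filled points were called. Timp1 (5.74), Thbs1 (5.03) and Lox (4.91) are the highest shown at 30 μg/kg, and the filled points below 0 are those of Tpm2.

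Markers of the cells that could carry these genes also changed with dose, and their part in the members' changes was not tested. Their onsets differed. At 1 μg/kg 3 of 7 macrophage markers (Adgre1, Csf1r and Cd5l) and 1 of 5 portal fibroblast markers (Entpd2) were called higher. Hepatocyte Ttr and Apoa1 were called lower from this dose, at which no member was called (2.78% of all genes called either way). At 10 μg/kg no smooth muscle, mesothelial, platelet or cholangiocyte marker was called. The counts below stand beside 23.2% of all genes called higher and 42.1% called either way at 30 μg/kg, and 13.6% and 21.8% at 10 μg/kg. Of 10 stellate markers, 5 were called higher at 30 μg/kg (Lrat, Reln, Hand2, Hgf and Dcn) and none lower. Lhx2, Rgs5, Colec11, Ngfr and Gfap were not called, and the median log2 fold change of the 10 was 0.51. At 10 μg/kg 3 were called higher (Reln, Ngfr and Dcn), and the median was also 0.51. From 10 to 30 μg/kg Lrat, Reln, Ngfr and Dcn were called, 3 higher and 1 lower (21.1% of all genes called). All 7 macrophage markers were called higher at 10 and 30 μg/kg, their sum going from 128 to 180 CPM in vehicle mice to 474 to 1341 CPM at 30 μg/kg. Of 5 portal fibroblast markers 4 were called higher at 30 μg/kg (sum 8.41 to 23.6 CPM against 59.3 to 98.5 CPM), and of 6 smooth muscle markers 2, Myh11 and Lmod1 (sum 8.36 to 25.8 CPM against 14.3 to 29.6 CPM). Without vehicle replicate 2 the highest vehicle sums of these 2 lists were 12.5 and 11.2 CPM. Of 6 endothelial markers 4 were called higher (sum 135 to 182 CPM against 242 to 328 CPM), of 3 mesothelial markers 1 (1.43 to 7.90 CPM against 4.03 to 14.3 CPM), and of 3 platelet markers tested 2, Pf4 and Ppbp (4.79 to 6.79 CPM against 5.55 to 23.3 CPM). Without replicate 1 at 30 μg/kg the lowest platelet sum at that dose was 11.6 CPM, and without vehicle replicate 2 the highest mesothelial sum in vehicle mice was 4.53 CPM. Of 4 cholangiocyte markers 3 were called higher and Sox9 lower (14.4 to 19.3 CPM against 15.9 to 95.8 CPM), where the upper limit was replicate 2 and the other 4 mice at 30 μg/kg lay at 15.9 to 21.7 CPM. Hepatocyte Alb, Ttr and Apoa1 were called lower. Of the skeletal muscle markers, Ckm and Myh4 were at 0 in all 5 mice at 30 μg/kg, where Acta1, skeletal α-actin, was at 20.0 to 75.0 CPM. No marker list was at 0 as a whole in any group.

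The genes most like each member across the 40 libraries, by Pearson correlation of log2 CPM, are given as a description, since the 40 points share the dose design, the scaling and the libraries. Tgfb1 was most like Tgfbi (r = 0.96, Spearman rho = 0.95), a gene named for its induction by TGF-β, followed by Cotl1 and Col4a1. Pdgfrb was most like the fibrillar collagen genes Col1a1 (r = 0.94, rho = 0.86) and Col1a2 (r = 0.94), with Igfbp7 next. Pdgfra was most like Arhgap19, Gadd45b and Dcn (r = 0.93, rho = 0.71 for Dcn), and Tgfb2 most like Usp18, Gpnmb and Msrb3 (r = 0.93 for each). Tgfb3 was most like Acta2 (r = 0.85, rho = 0.72), Eln and Krt7, and Acta2 most like Eln, elastin (r = 0.90, rho = 0.88), Anxa2 and Csrp1. Pdgfb was most like Fxyd5 (r = 0.92, rho = 0.90), Mfge8 and Lsp1. For Des the highest r was 0.79 (AI413582), followed by Col6a2 and Pcolce, and for Pdgfa it was 0.57 (Fkbp7), the lowest of the 9, followed by AC129188.1 and Sec23a. Leaving out vehicle replicate 2 moved r for Des and Pcolce from 0.77 to 0.87.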

How the data were processed

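Liver RNA from 40 mice was sequenced and, per the labels, grouped by dose. Per the submitters' processing notes, reads were checked and trimmed with FastQC 0.11.7 and Trimmomatic 0.39 and aligned with STAR 2.7.3a. The authors deposited unnormalized counts per gene with an unstranded column and a column for each strand setting. Strand settings split reads evenly (50.0% to 50.3% on the first), so the unstranded column was used, in which overlapping genes lose the reads they share. Ambiguous reads (4.84% to 5.90%), reads outside genes and reads mapped to several places stand in separate rows and were left out. The authors also deposited a log2 table, which DESeq2's variance-stabilizing transformation of the counts matched within 5.03e-10 over 23120 genes, and its log2 values entered the limma alternative. Both GRCm39 and mm10 are named as builds with no role, so coordinates are given only for the RefSeq promoters.

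Counts were fitted in R 4.3.3 with edgeR 4.0.16 (filterByExpr, minimum count 10 and minimum total 15, TMM, 1 mean per dose over all 40 libraries, no covariates), tested on simulated data. The study's posterior probability was replaced by edgeR's test. Alternatives used DESeq2 1.42.0, limma 3.58.1, other scalings and filters, 2 groups alone, title-number runs (up to 27, 19 libraries, and from 28, 21 libraries), and leaving out each library. Ratios added 1 to counts and were tested in SciPy 1.17.1. Replicate numbers follow accession order and pair no mice. Where samples of a group are not separate mice, p-values measure only the spread between samples. The members and gene lists were chosen with earlier results of these data known. The text names all 9 members, list genes called at the lowest dose or moving most at 30 μg/kg, and the 3 genes most like each member. A list gene is counted in its list but is not reported here by name or value.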

Additional observations from a re-analysis of the deposited data

Results flagged for a closer look

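In 7 of 72 groups of 5 mice (9 genes, 8 groups), 1 mouse stood apart from the other 4 by Dixon's gap criterion, where chance gives about 1 in 20. For Acta2, vehicle replicate 2 was high at 15.2 CPM (others 1.49 to 2.44), replicate 4 at 10 μg/kg was low at 3.3 CPM (others 5.84 to 7.28) and replicate 1 at 30 μg/kg was low at 8.29 CPM (others 32.1 to 51.4). For Des, vehicle replicate 2 was high at 31 CPM (others 3.78 to 6.16). Tgfb2 was high in replicate 3 at 0.1 μg/kg, at 1.08 CPM (others 0.327 to 0.388). Pdgfa was low in replicate 5 at 0.3 μg/kg, at 2.87 CPM (others 5.57 to 6.73). Pdgfrb was low in vehicle replicate 4, at 9.51 CPM (others 11 to 11.5).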

How the results depend on the processing

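No paired analysis was possible because replicate numbers follow accession order and pair no mice. Under 14 alternatives, members called numbered 0 at each dose up to 1 μg/kg, 4 to 7 at 10 μg/kg and 6 to 8 at 30 μg/kg, and 5 to 9 under 13 for the slope, and leaving out 1 library gave 5 to 7, 7 to 8 and 7 to 8. At 3 μg/kg the 1 call became 2 with total counts (Tgfb1 added), 0 in either numbering run alone, and 1 to 2 with 1 library left out. From 10 to 30 μg/kg the 5 calls became 0 in the first run alone, which holds replicate 1 at 30 μg/kg, and 4 to 7 with 1 library left out. A filter at a mean of 50 counts removed Tgfb3. Of 10 ratio tests, 6 to 9 passed under other settings and 7 to 9 with 1 library left out. Runs alone gave ratio values with no test.

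Every change of direction met a value that was not called with all mice, and the cause was not tested. At 3 μg/kg the log2 values became -0.081 (second run) and -0.040 (strand-specific column) for Pdgfra, 0.18 (second run) for Acta2 and 0.39 (second run) for Des. With vehicle replicate 2 and replicate 1 at 30 μg/kg left out they were 0.13 for Tgfb3, 0.52 for Acta2 and 0.26 for Des. At 10 μg/kg Tgfb3 became 0.15 (total counts), 0.35 (second run, and both libraries out) and 0.029 (limma). Des became 0.022 (total counts), 0.12 (run and order as covariates), 0.97 (second run), 0.23 (limma) and 0.87 (both out), and in the first run Pdgfa became -0.11 and Acta2 -0.018. At 30 μg/kg Pdgfa became -0.11 (second run), -0.0029 (2 groups alone) and -0.0093 (both out), and Des -0.018 (first run). From 10 to 30 μg/kg Pdgfa became 0.23 with total counts and in the first run, and the slope of Des became -0.018 in the first run.

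With 1 library left out, log2 values at 3 μg/kg ran from -0.58 to 0.13 for Tgfb3, -0.13 to 0.22 for Pdgfra, -0.95 to 0.52 for Acta2 and -0.97 to 0.26 for Des. At 10 μg/kg they ran from -0.27 to 0.35 for Tgfb3, -0.0052 to 0.14 for Pdgfa and -0.37 to 0.87 for Des. Pdgfa ran from -0.094 to 0.046 at 30 μg/kg, from -0.14 to 0.0092 between 10 and 30 μg/kg, and its slope from -0.0034 to 0.012. The ratio of Tgfb3 to Tgfb1 at 30 μg/kg ran from -0.0092 to 0.47. Without replicate 1 at 30 μg/kg, Pdgfb (0.82, adjusted p = 0.0369, edgeR) and Pdgfrb (0.66, adjusted p = 0.00102) were also called from 10 to 30 μg/kg. Counts of 4 to 22 per vehicle library limit the precision of Tgfb2 and Pdgfb.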
